A study of Rattus norvegicus with 4 samples.

Results

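The genes described are 7 G protein-coupled receptors with known roles in the timing of oligodendrocyte or Schwann cell maturation: Gpr17, Gpr37, Gpr37l1, Adgrg1, Adgrg6, Adgrb3 and Lpar1. They were taken by name from the deposited gene table, which held all 7 of them among 14410 genes, and all 7 passed the filter on low values that left 14368 genes to test. RNA-seq had been run on 4 libraries of CG4, a rat line of oligodendrocyte progenitor cells, with total RNA as input. Both groups carried a retrovirus, GFP alone behind the CAG promoter in ctrl and Phf8 with GFP behind the same promoter in Phf8oe, in otherwise wild-type cells, with 2 biological replicates per group. All cells were sorted for GFP, expanded with PDGF-AA and bFGF and then switched to SATO-containing medium to differentiate for 3 days, so a library is a mixed population of a single line and not a pure stage. In such bulk samples fewer cells of a type and less RNA per cell cannot be told apart.

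Maturation of an oligodendrocyte is paced by receptors that act as brakes or as licences. Gpr17 appears as a progenitor commits itself and holds the cell short of the myelinating state until it is removed again, whereas Gpr37 comes on late and restrains the last steps. The adhesion receptors have a long extracellular part that binds matrix or neighbouring cells: Adgrg1 keeps progenitors dividing, Adgrg6 raises cyclic AMP in Schwann cells and is needed for them to myelinate, and Adgrb3 binds secreted C1q-like proteins. Lpar1 is the receptor for lysophosphatidic acid in maturing oligodendrocytes, and Gpr37l1, the closest relative of Gpr37, is best known from astrocytes and progenitors.

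With extra Phf8, 1 receptor rose, 3 fell and 3 did not pass the test. Gpr37 rose 2.18-fold, and the adhesion receptors Adgrg1, Adgrb3 and Adgrg6 fell 1.61-fold, 1.47-fold and 1.41-fold (limma on log2 of the normalized count plus 1, Benjamini-Hochberg adjusted over all tested genes, threshold 0.05). Gpr17, Gpr37l1 and Lpar1 stayed on the other side of the threshold. All 4 calls rest on a variance trend across genes: without it their adjusted p in limma lay between 0.1 and 0.177. Of all 14368 genes tested, 7.64% were called, 2.99% higher and 4.65% lower. The groups did not overlap in 5 of the 7 receptors, against 57.6% of all tested genes: 1 lay higher, beside 28.9% of all genes, and 4 lower, beside 28.7%. The median log2 fold change of the 7 was -0.21, beside 0.0 over all tested genes.

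**Figure D1:**
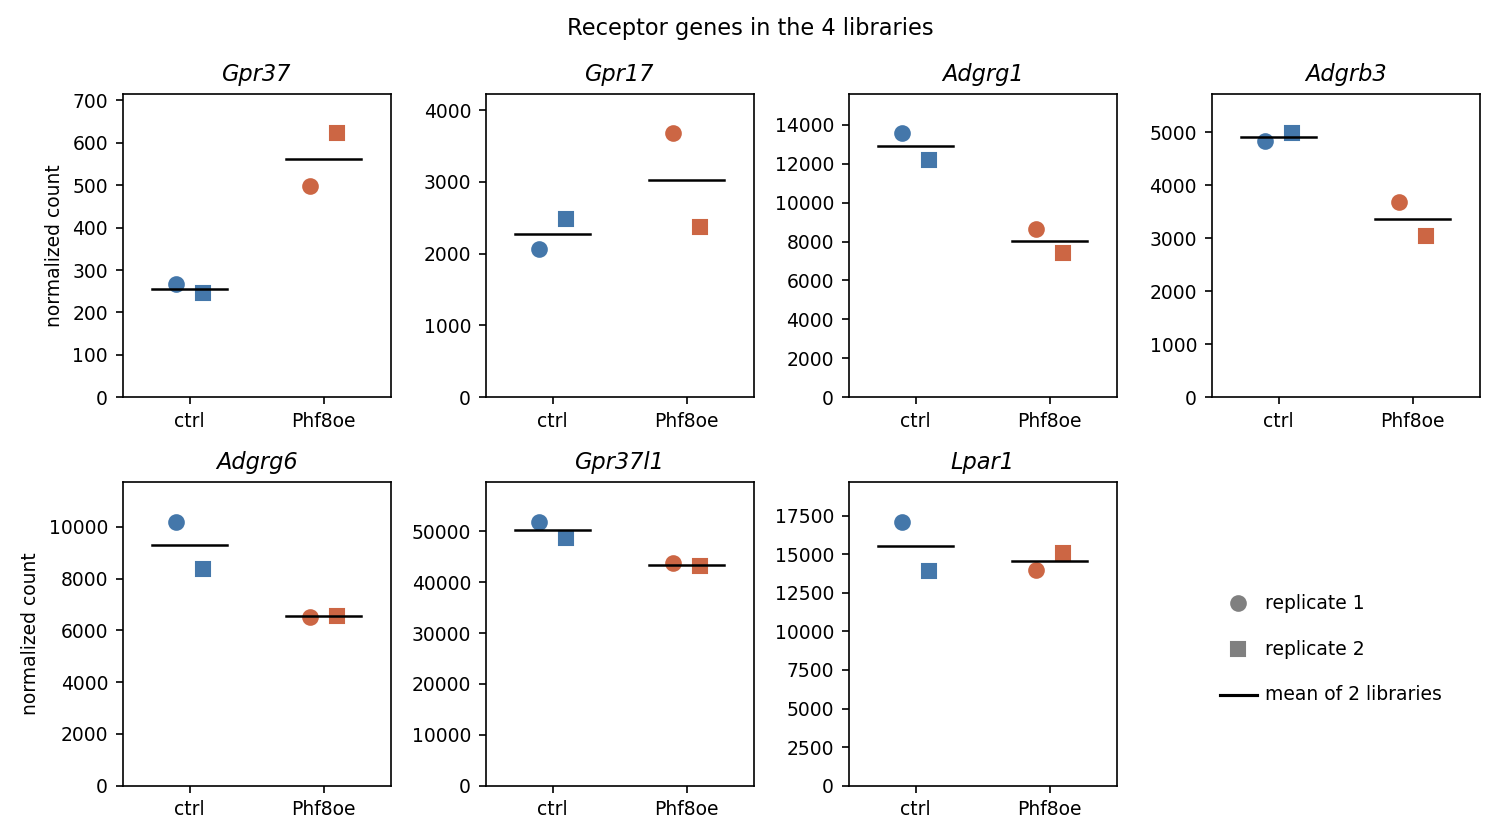
Normalized count (linear axis from 0) of each receptor gene in the 4 libraries, ctrl in blue and Phf8oe in orange, with circles for replicate 1, squares for replicate 2 and a line at the mean. Both Phf8oe libraries lie above both ctrl libraries for Gpr37 and below them for Adgrg1, Adgrb3, Adgrg6 and Gpr37l1, while the groups overlap for Gpr17 and Lpar1.

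The values are normalized counts, that is reads per gene scaled so that libraries can be compared. Per gene and library the receptors rested on between 241 and 61499 estimated reads. Counting error alone was therefore at most about 6.4%, reached by Gpr37 in ctrl replicate 2. Phf8 itself stood at 2026 and 2205 in ctrl and at 5650 and 10796 in Phf8oe, a 3.69-fold difference that did not pass the test (limma adjusted p = 0.0631) but passed without robust variance moderation (0.0194). All 10 lineage markers were listed, among them Sox10 at 61514 to 70474 and Mbp at 173338 to 340486. The progenitor proteoglycan gene Cspg4 was low, at 32 to 79. The labels do not say whether replicates came from separate transductions, so a p-value covers no more than the scatter of these cultures. Transcript lengths were not analysed here, so levels are compared between groups for 1 gene at a time and not between genes.

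Gpr37 encodes an orphan receptor that restrains late oligodendrocyte differentiation, and it is the receptor whose transcript rose. The ctrl libraries held 266 and 245 normalized counts of Gpr37, the Phf8oe libraries 499 and 623. Both Phf8oe libraries were clearly above both ctrl libraries, and the replicates differed by 1.09-fold and 1.25-fold. On the log2 scale Gpr37 was 1.12 higher (SE 0.17, 95% interval 0.73 to 1.51, limma adjusted p = 0.00868, n = 2 per group). A larger absolute change was seen in 3.59% of all tested genes. Leaving out ctrl replicate 1 gave a log2 fold change of 1.18 and ended the call (limma adjusted p = 0.127). Leaving out ctrl replicate 2 did the same, at 1.06 (adjusted p = 0.0706).

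Gpr37l1, its paralog, did not share that rise. Gpr37l1 stood at 51936 and 48742 in the ctrl libraries and at 43746 and 43208 with Phf8. The Phf8oe libraries both lay somewhat lower, at 86.9% and 85.8% of the ctrl mean, without overlap. Its log2 fold change of -0.21 did not pass (95% interval -0.45 to 0.03, limma adjusted p = 0.239). The interval leaves room for a fall to 0.733 times the ctrl level and for a rise to 1.02 times, but not for a change of the size of Gpr37.

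The difference between the paralogs was also read within each library. Per 1000 normalized counts of Gpr37l1 there were 5.12 and 5.03 of Gpr37 in ctrl, and 11.4 and 14.4 in Phf8oe. The mean ratio was thus 2.52-fold higher in Phf8oe on the log2(value + 1) scale, and each Phf8oe library lay above both ctrl libraries. An exact two-sided permutation test over the 4 libraries gave p = 0.333, the smallest value that 2 against 2 allows, so this comparison could not pass.

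The paralogs also differ in the DNA before their start. Promoter sequences were matched in the RefSeq tables (build GRCr8) for 6 of the 7 genes, all but Lpar1. The 250 bases upstream of the annotated start are shown here for Gpr37 (chr4:55126421-55126670, minus strand) and Gpr37l1 (chr13:49157205-49157454, minus strand) to show how unlike the starts of the paralogs are. Capitals mark CpG dinucleotides.
Gpr37: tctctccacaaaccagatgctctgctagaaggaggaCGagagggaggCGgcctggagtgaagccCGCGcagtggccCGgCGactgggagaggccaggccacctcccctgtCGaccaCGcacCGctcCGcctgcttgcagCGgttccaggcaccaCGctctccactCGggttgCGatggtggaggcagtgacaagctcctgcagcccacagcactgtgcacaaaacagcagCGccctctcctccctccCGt
Gpr37l1: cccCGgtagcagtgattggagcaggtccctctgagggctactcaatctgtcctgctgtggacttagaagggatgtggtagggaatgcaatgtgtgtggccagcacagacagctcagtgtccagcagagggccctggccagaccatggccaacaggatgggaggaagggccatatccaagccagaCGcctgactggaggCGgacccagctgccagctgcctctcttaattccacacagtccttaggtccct
The Gpr37 stretch holds 16 CpG dinucleotides and the Gpr37l1 stretch 3, against a median of 11 over 17316 promoters of named genes. More CpG than in Gpr37 is found in 33.3% of those promoters, and more than in Gpr37l1 in 73.6%. No binding was measured, and the counts describe the sequences only.

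The adhesion receptors Adgrg1, Adgrg6 and Adgrb3 fell together. Adgrg1, which holds progenitors in a dividing state, had 13573 and 12202 normalized counts in ctrl and 8651 and 7397 in Phf8oe. Both Phf8oe libraries were well below both ctrl libraries. The log2 fold change of Adgrg1 was -0.69 (SE 0.12, 95% interval -0.95 to -0.42, limma adjusted p = 0.0123). The limma call was lost on leaving out ctrl replicate 1 (-0.61, adjusted p = 0.202) or ctrl replicate 2 (-0.76, adjusted p = 0.0653).

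Adgrb3, known from synapses as a receptor of C1q-like proteins, had 4832 and 4985 normalized counts in ctrl and 3688 and 3036 in Phf8oe. The ctrl libraries agreed within 1.03-fold and lay above both Phf8oe libraries. The log2 fold change of Adgrb3 was -0.55 (SE 0.12, 95% interval -0.81 to -0.29, limma adjusted p = 0.0261). The limma call needed both ctrl libraries: leaving out replicate 1 gave -0.57 (adjusted p = 0.24), and leaving out replicate 2 gave -0.53 (adjusted p = 0.148).

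Adgrg6, the cyclic AMP-raising receptor that Schwann cells need to myelinate, had 10200 and 8370 normalized counts in ctrl and 6507 and 6567 in Phf8oe. The Phf8oe libraries were nearly equal and lower than both ctrl libraries, which differed from each other by 1.22-fold. The log2 fold change of Adgrg6 was -0.5 (SE 0.12, 95% interval -0.76 to -0.24, limma adjusted p = 0.0356). This was the weakest of the 4 calls: it was also lost without robust variance moderation (limma adjusted p = 0.0573). With ctrl replicate 1 absent Adgrg6 stood at -0.36 (limma adjusted p = 0.367), and with replicate 2 absent at -0.64 (adjusted p = 0.0708). Of 8 tested Schwann cell and neural crest markers Tfap2a and Egr2 fell and 6 did not pass, so 25% were called beside 7.64% of all tested genes. With ctrl replicate 1 left out neither call held in limma (adjusted p = 0.231 and 0.281), and with replicate 2 left out that of Egr2 did not (0.148). Their summed level was 39619 to 40443 in ctrl and 37953 to 40999 in Phf8oe, most of it Sox2. The part of these cells in the result was not tested.

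**Figure D2:**
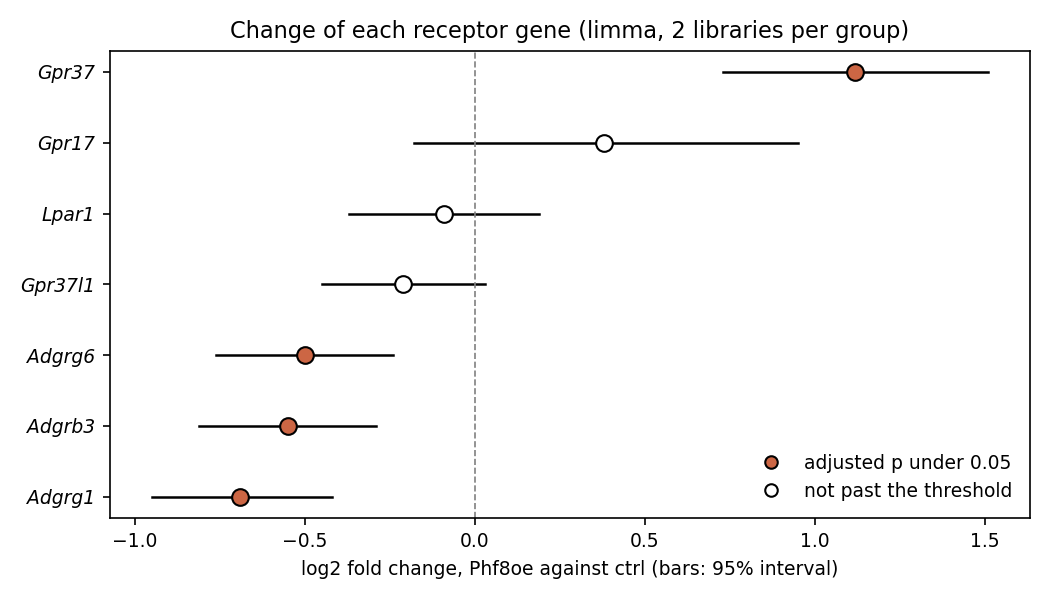
Log2 fold change of each receptor gene in Phf8oe against ctrl with its 95% interval from limma, filled where the adjusted p was under 0.05. The intervals of Adgrg1, Adgrb3 and Adgrg6 lie below 0 and that of Gpr37 above it, while those of Gpr37l1, Lpar1 and Gpr17 include 0.

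The upstream sequences of Adgrg1 (chr19:10047139-10047388, minus strand) and Adgrg6 (chr1:10773876-10774125, minus strand) are shown as those with the fewest and the most CpG among the adhesion receptors. They are again 250 bases from RefSeq (GRCr8), with CpG dinucleotides in capitals.
Adgrg1: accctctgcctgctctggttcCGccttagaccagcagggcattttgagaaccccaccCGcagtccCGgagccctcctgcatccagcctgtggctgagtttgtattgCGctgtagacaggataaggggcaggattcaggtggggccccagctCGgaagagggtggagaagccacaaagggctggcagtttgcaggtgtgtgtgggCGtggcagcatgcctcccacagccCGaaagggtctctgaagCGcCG
Adgrg6: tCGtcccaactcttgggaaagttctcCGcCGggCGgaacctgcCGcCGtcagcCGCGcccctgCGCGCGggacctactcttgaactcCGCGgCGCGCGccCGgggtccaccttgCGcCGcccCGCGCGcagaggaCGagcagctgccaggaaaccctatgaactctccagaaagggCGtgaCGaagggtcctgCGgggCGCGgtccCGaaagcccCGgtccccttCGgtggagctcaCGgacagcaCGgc
Adgrg1 holds 9 CpG dinucleotides and Adgrg6 33, a number exceeded by 4.26% of promoters. Adgrb3 lies between them with 10, and Gpr17 has 5. The falling genes thus span 9 to 33 and the rising Gpr37 lies inside that span. The AP-1 motif TGANTCA was in none of the 6 stretches and in 5.65% of all promoters, and the full cyclic AMP response element TGACGTCA was in none of them and in 2.17% of all. Its half-site TGACG was found 2 times in Adgrg6 and in none of the other 5, against 22% of all promoters. The E-box CANNTG was in 5 of the 6, Gpr17 being without it, and in 61.8% of all. Both strands were searched. The full element contains the half-site on each strand, and matches are letters in these windows, not sites of binding.

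Gpr17, the brake of the committed precursor, differed more between the Phf8oe libraries than between the groups. In the ctrl libraries 2070 and 2479 normalized counts of Gpr17 were listed, in the Phf8oe libraries 3679 and 2370. Phf8oe replicate 1 stood alone at 162% of the ctrl mean, while replicate 2, at 104%, lay inside the ctrl range. Its log2 fold change of 0.38 did not pass (SE 0.23, 95% interval -0.18 to 0.95, limma adjusted p = 0.344), which reaches from a fall to 0.881 times to a rise to 1.93 times the ctrl level. Without Phf8oe replicate 2 it was 0.7 and passed (limma adjusted p = 0.000982), and without Phf8oe replicate 1 it was 0.07 (adjusted p = 0.807), so the value rests on a single library.

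Gpr17 lies within Lims2, a gene for a focal adhesion adaptor that runs on the opposite strand in the GRCr8 annotation. The sources used here do not give the use of strand in counting, so reads of the pair may not be separable where they overlap. Lims2 stood at 1519 and 1920 in the ctrl libraries and at 3345 and 2359 with Phf8. Its libraries stood in nearly the same order as those of Gpr17, highest in Phf8oe replicate 1, but its groups did not overlap (log2 fold change 0.72, limma adjusted p = 0.0767). Myo7b, an unconventional myosin gene on the other side that also overlaps Lims2, had 42 and 59 against 129 and 88 (a log2 change of 1.08, limma adjusted p = 0.0621). With Phf8oe replicate 2 left out Lims2 and Myo7b both passed (limma adjusted p = 0.000177 and 0.00839), and Lims2 also passed with Phf8oe replicate 1 left out (0.0437). Sft2d3, the neighbour on the opposite side from Myo7b, differed less, with 394 and 358 against 460 and 438. Per 1000 normalized counts of Lims2 there were 1363 and 1291 of Gpr17 in ctrl and 1100 and 1005 in Phf8oe, a ratio that was lower in both Phf8oe libraries and that was looked at after the values were seen.

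**Figure D3:**
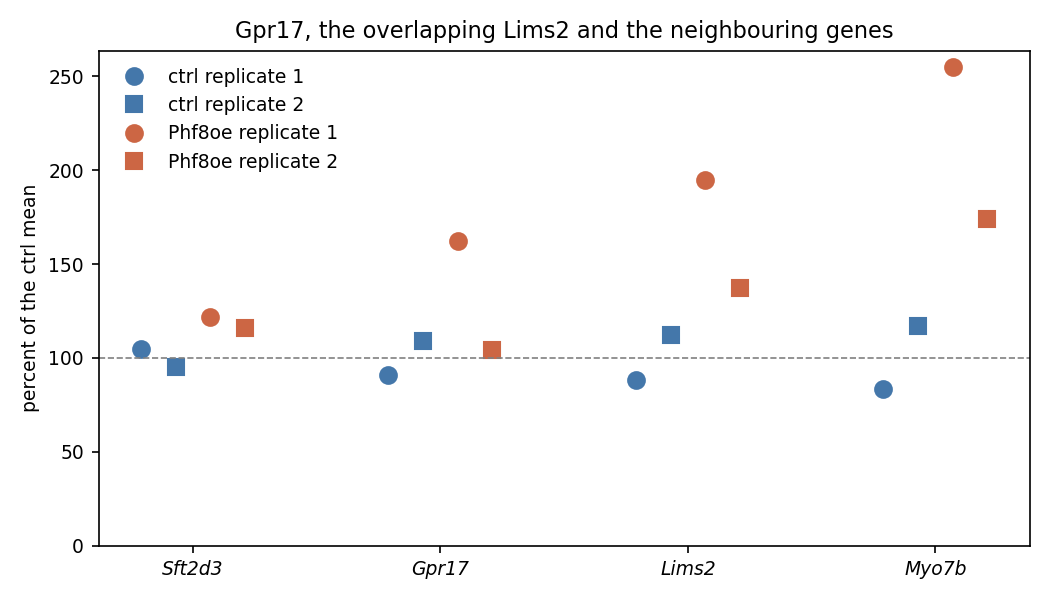
Percent of the ctrl mean (axis from 0) in each library for Gpr17, the overlapping Lims2 and the neighbours Sft2d3 and Myo7b, with colours for the groups and shapes for the replicates. Phf8oe replicate 1 is the highest point of all 4 genes, at 162% for Gpr17, 195% for Lims2, 255% for Myo7b and 122% for Sft2d3.

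Lpar1, the lysophosphatidic acid receptor, was near its ctrl level. Lpar1 stood at 17112 and 13928 in the ctrl libraries and at 14000 and 15089 with Phf8. Both Phf8oe libraries fell between the ctrl libraries, which differed by 1.23-fold. Its log2 fold change was -0.09 (95% interval -0.37 to 0.19, limma adjusted p = 0.694), leaving room for values from 0.776 to 1.14 times the ctrl level. It changed sign, to 0.06, when ctrl replicate 1 was left out.

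**Figure D4:**
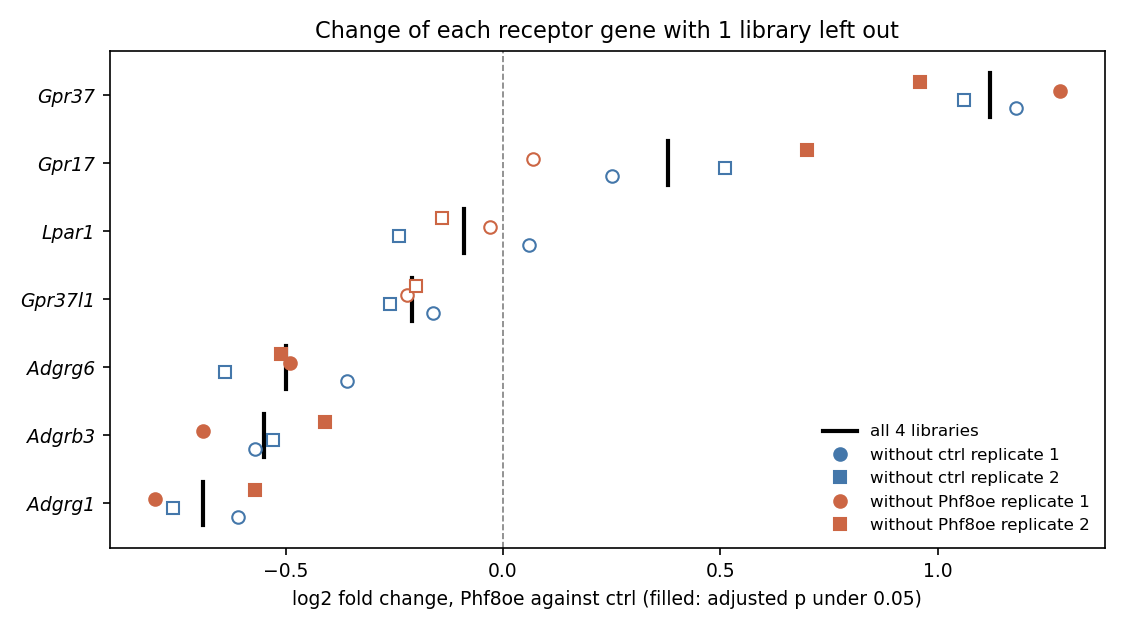
Log2 fold change of each receptor gene with all 4 libraries (black line) and with each library left out in turn, filled where the limma adjusted p was under 0.05. The 4 genes called with all libraries keep their direction in every case but lose the call without either ctrl library, and Gpr17 moves between 0.07 and 0.7 with the Phf8oe library left out.

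The receptors were compared with one another by their profiles, log2 values centred on each gene's mean over the 4 libraries. Adgrg1 and Adgrb3 were the closest pair, at a Euclidean distance of 0.2 log2 units. Gpr37l1 and Lpar1 followed at 0.21, and Adgrg1 and Adgrg6 at 0.27. Gpr37 and Adgrg1 were farthest apart, at 1.9. With 4 libraries such distances only describe these samples.

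The genes whose profile came nearest to each receptor were sought among 10600 others with a mean of at least 100. For Gpr37 they were Wif1, a secreted Wnt inhibitor, Cited1 and Sdsl, at distances of 0.1, 0.19 and 0.26. Wif1 went from 139 and 125 to 275 and 313. For Adgrg1 they were the neuronal kinesin gene Kif5c (0.039), the clone-named gene AC131360.1 and Coq8b. For Adgrb3 the nearest was Cdkn1c, an inhibitor of cell division, at 0.02, followed by Mybpc2 and Mindy2. Cdkn1c went from 143699 and 149673 to 109475 and 89403. These genes were chosen for their likeness over the same libraries, so their changes follow from the choice and are given without a test.

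For Adgrg6 the nearest were Paqr8, Serinc1 and Zfyve1, at 0.021, 0.021 and 0.036. For Gpr37l1 they were Man2b2, Dpy19l3 and Msl1, within 0.019, and for Lpar1 they were Erf, Wdr6 and Ddx39a, within 0.037. For Gpr17 they were Sema4d, a semaphorin of oligodendrocytes, Ephb4 and Caskin1, within 0.039. Sema4d had 4243 and 4991 in ctrl against 7617 and 4927, with Phf8oe replicate 1 standing alone.

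Tested genes that overlap or directly neighbour a receptor numbered 15, and 2 of them were called, beside 7.64% of all tested genes. Ccdc102a, on one side of Adgrg1, rose from 535 and 668 to 999 and 933 (a log2 change of 0.69, limma adjusted p = 0.0264), opposite to Adgrg1. Hivep2, on one side of Adgrg6, fell from 1990 and 2140 to 1241 and 1495 (a log2 change of -0.6, limma adjusted p = 0.0251). Both calls were lost without ctrl replicate 1 (adjusted p = 0.279 and 0.212) and without ctrl replicate 2 (0.0611 and 0.151). Vta1, on the other side of Adgrg6, had a log2 fold change of -0.01, and Arl8a and Rnpep beside Gpr37l1 had 0.03 and -0.05.

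The ligands of these receptors were followed next. Of 15 tested genes for ligands and their processing, Col4a2 fell, Lamb1 rose and 13 did not pass. The share called was 13.3%, beside 7.64% of all tested genes. Col4a2, a chain of the type IV collagen that binds Adgrg6, went from 2271 and 2358 to 1592 and 1657 (a log2 change of -0.51, limma adjusted p = 0.023). Lamb1, a laminin chain, went from 7693 and 7901 to 10392 and 9853 (a log2 change of 0.38, limma adjusted p = 0.0499). Both calls were lost without ctrl replicate 1 (adjusted p = 0.227 and 0.378) and without ctrl replicate 2 (0.144 and 0.188), and that of Lamb1 also without Phf8oe replicate 1 (0.0672). The Lamb1 call lay at the threshold and was also lost with total scaling (limma adjusted p = 0.0543), TMM scaling (0.0501), a pseudocount of 0.5 (0.0501) and no robust moderation (0.0609). The median log2 fold change of the list was -0.21.

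Other ligand genes were picked by their role after their values were seen. Psap, the gene of prosaposin, a proposed ligand of Gpr37 and Gpr37l1, had 70723 and 66317 in ctrl and 61179 and 57000 in Phf8oe (limma adjusted p = 0.25). Enpp2, whose product autotaxin makes lysophosphatidic acid, had 26904 and 20565 against 19818 and 18550 (limma adjusted p = 0.214). None of the 4 C1q-like genes, whose products bind Adgrb3, passed the test. C1ql1 had 3163 and 2843 against 2041 and 1347, and C1ql2 had 918 and 1031 against 2158 and 1402 (limma adjusted p = 0.0555 and 0.0593). C1ql3 had 82 and 58 against 83 and 67, and C1ql4 had 128 and 259 against 396 and 164 (limma adjusted p = 0.84 and 0.651), with groups that overlapped.

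Among 15 other adhesion receptors, Adgrl3 fell, Adgrg2 rose and 13 did not pass, with a median log2 fold change of -0.37 and 12 of 15 lower. The share called was 13.3%, beside 7.64% of all tested genes. Adgrl3, a latrophilin, went from 7013 and 6632 to 5391 and 4272 (a log2 change of -0.51, limma adjusted p = 0.0428). Adgrg2 was rare, with 6 and 7 against 39 and 31 (log2 fold change 2.26, limma adjusted p = 0.0149). It was not tested with a Phf8oe library left out, and lost its call without either ctrl library (adjusted p = 0.184 and 0.0787). The call of Adgrl3 held only without Phf8oe replicate 1 among the fits with 3 libraries (limma adjusted p = 0.000549), the others lying between 0.0611 and 0.362. It was also lost with upper quartile scaling (0.0535) and without robust moderation (0.0675).

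Of 14 receptors for lipids and nucleotides, S1pr2 fell and 13 did not pass, so 7.14% were called beside 7.64% of all tested genes. S1pr2, a sphingosine 1-phosphate receptor, went from 2876 and 2263 to 1817 and 1725 (a log2 change of -0.53, limma adjusted p = 0.043). Without ctrl replicate 1 its call was lost (adjusted p = 0.405), as it was without replicate 2 (0.0685), with upper quartile scaling (0.0522) and without robust moderation (0.0692). The other listed lysophosphatidic acid receptors were rare: Lpar3 had 21 and 36 against 48 and 161, and Lpar6 had 60 and 59 against 56 and 50.

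Of 13 other receptors reported in the lineage, Smo and Lgr5 rose, Gabbr2 and Gprc5b fell and 9 did not pass. The share called was 30.8%, beside 7.64% of all tested genes. Gabbr2, a subunit of the GABA-B receptor, went from 4938 and 4722 to 1406 and 2166 (a log2 change of -1.47, limma adjusted p = 0.0153). Smo, the Hedgehog signal transducer, went from 349 and 608 to 1189 and 1117 (a log2 change of 1.32, limma adjusted p = 0.0384). Lgr5, a receptor for R-spondins, had 606 and 534 against 928 and 978, and the orphan receptor gene Gprc5b 2992 and 2040 against 1410 and 1342. Without ctrl replicate 1 none of these 4 calls held (adjusted p between 0.101 and 0.212). Without ctrl replicate 2, Smo and Gprc5b held and Gabbr2 and Lgr5 did not (0.0955 and 0.106). Without either Phf8oe library Gabbr2 and Lgr5 held, while Smo (0.131 and 0.108) and Gprc5b (0.0749 and 0.0891) did not.

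Downstream of the receptors, the calls were all lower but no more frequent than among all genes by much. They made up 8.7% of the tested G protein subunit genes, 3.23% of the cyclic AMP pathway genes and 6.67% of the desensitisation genes. Of all tested genes 7.64% were called, 4.65% lower and 2.99% higher. Of 23 G protein subunit genes, Gnaq and Gna13 fell and 21 did not pass. Gna13, a subunit through which Adgrg1 signals, went from 2654 and 2488 to 1914 and 1961 (a log2 change of -0.41, limma adjusted p = 0.0442). Gnaq, which links receptors to phospholipase C, went from 1882 and 1781 to 1353 and 1308 (a log2 change of -0.46, limma adjusted p = 0.0347). Gna12, the close relative of Gna13, had a log2 fold change of -0.01 and was picked after its value was seen.

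Of 31 genes of the cyclic AMP pathway, Prkar1a fell and 30 did not pass, with a median log2 fold change of -0.23. Prkar1a, a regulatory subunit of protein kinase A, went from 20837 and 19533 to 13331 and 14928 (a log2 change of -0.52, limma adjusted p = 0.026). Of 15 desensitisation genes, Arrb1, which encodes beta-arrestin 1, fell from 3104 and 3360 to 1870 and 1886 (a log2 change of -0.78, limma adjusted p = 0.00474) and 14 did not pass. The call of Gna13 was lost with upper quartile scaling (limma adjusted p = 0.0585) and without robust moderation (0.0598). Without ctrl replicate 1 the calls of Gnaq, Gna13, Prkar1a and Arrb1 were all lost (adjusted p between 0.0928 and 0.388). Without ctrl replicate 2 none of the 4 was kept in limma either (adjusted p between 0.0607 and 0.156).

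Over these 7 lists of ligands, receptors and signalling genes, 13 of 126 tested genes were called, or 10.3% beside 7.64% of all genes. The split was 4 higher and 9 lower, 3.17% and 7.14% beside 2.99% and 4.65%. Their median log2 fold change was -0.15, and 82 of the 126 lay lower. These are counts, and the lists were not tested as sets.

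**Figure D5:**
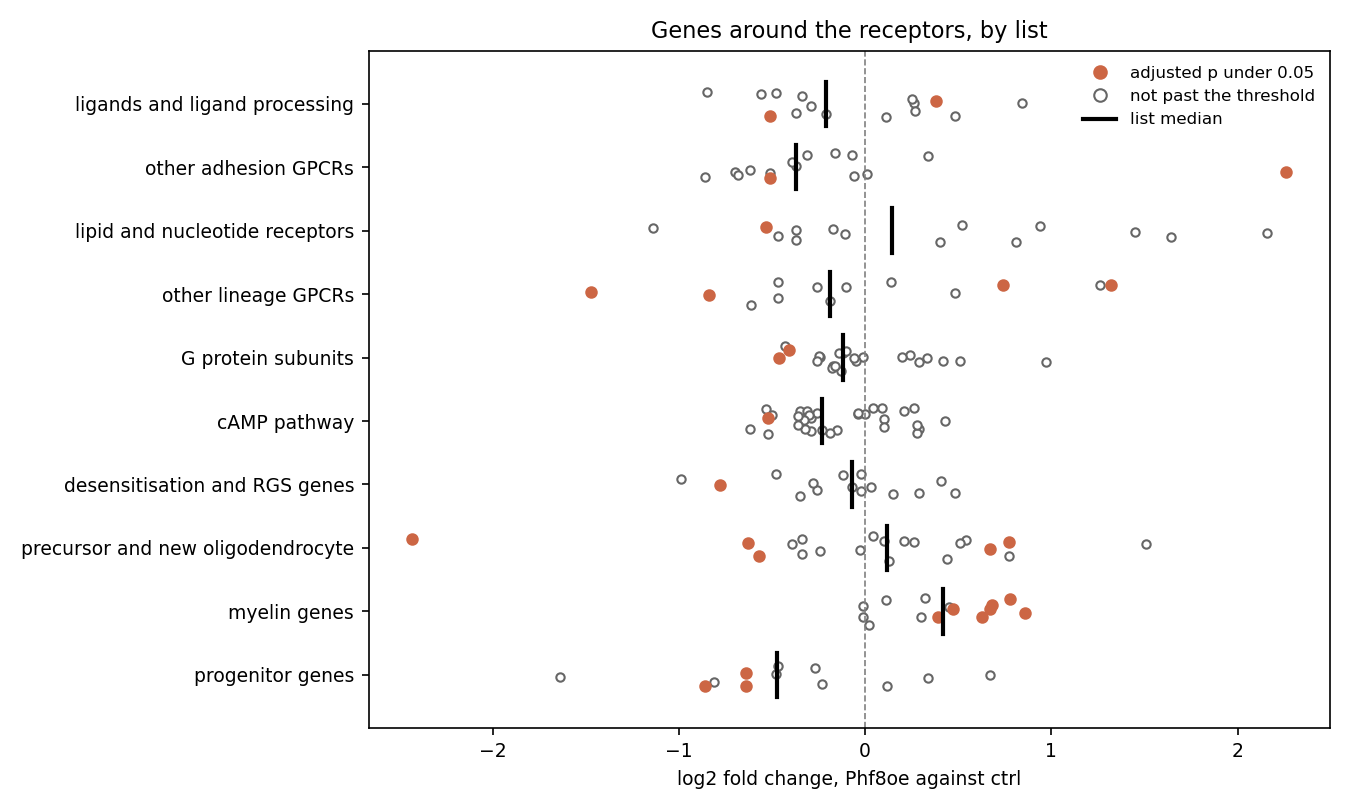
Log2 fold change in Phf8oe against ctrl of each tested gene in 10 lists, filled where the limma adjusted p was under 0.05, with a bar at the list median and vertical scatter for legibility only. The lists of signalling genes centre between -0.37 and 0.14, the myelin genes at 0.42 and the progenitor genes at -0.48.

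Stage genes of the lineage were measured in the same libraries. The shares called were 50% of the myelin genes and 25% of the progenitor genes, beside 7.64% of all tested genes. Among genes of committed precursors and newly formed oligodendrocytes the share was 25%. Of 14 myelin genes 7 rose and none fell, Mbp from 184442 and 173338 to 340486 and 308875. Of 12 progenitor genes 3 fell, Pdgfra, Sox6 and Gria3, and none rose. Of 20 genes of committed precursors and newly formed oligodendrocytes, the stage that Gpr17 marks, Bmp4 and Tmem163 rose, Ust, Sox11 and Prom1 fell and 15 did not pass. Tmem163 lies outside the naming rule and was added after its value was seen. Bmp4 had 4713 and 5852 against 9079 and 7670 (a log2 change of 0.67, limma adjusted p = 0.0251) and Prom1 293 and 163 against 27 and 58 (-2.43, adjusted p = 0.0264). Without ctrl replicate 1 all of these calls were lost, and without ctrl replicate 2 Pdgfra alone was kept (limma adjusted p = 0.0417). The call of Gria3 was also lost with upper quartile scaling (0.0509) and without robust moderation (0.0606).

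Markers of other cells were read because Gpr37l1 and Adgrg6 are also expressed outside the lineage. Of 7 tested astrocyte markers Gfap fell, from 79141 and 80736 to 10834 and 19613, Aldh1l1 and Slc1a3 rose and 4 did not pass; none of these calls held with either ctrl library left out. Of the 7 astrocyte markers 42.9% were called, beside 7.64% of all tested genes. Of the 7, 3 lay higher and 4 lower, and Aldh1l1 was rare, with 9 and 10 against 32 and 44. Summed astrocyte markers stood at 109558 and 118281 in ctrl and 58881 and 60565 in Phf8oe, but the fall of this sum is that of Gfap. The other 6 summed to 30417 and 37545 in ctrl and to 48047 and 40952 in Phf8oe, most of it Fgfr3. The astrocyte glutamate transporter gene Slc1a2 was near 0, at 30 and 58 in ctrl and 16 and 25 in Phf8oe. Gja1 was also low, with 93 and 119 against 49 and 78. Both lay lower in Phf8oe without passing the test (limma adjusted p = 0.162 and 0.151). Of microglial markers 2 of 8 were measured, with sums of 61 to 101, and of endothelial markers 3 of 6, with sums of 326 to 553. Of fibroblast and pericyte markers 2 of 8 were measured, and both were called in opposite directions. Col1a1 fell from 454 and 437 to 121 and 164 (limma adjusted p = 0.00361). Postn rose from 31 and 61 to 111 and 136 (limma adjusted p = 0.038), a call lost without robust moderation (0.0616). Of 8 neuronal markers none passed, though all lay lower in Phf8oe, with sums of 9577 to 13031 against 6185 to 6779. Unadjusted, 4 of the 8 had a limma p under 0.05, as did 3778 of all 14368 tested genes. Markers named here were chosen after their values were seen, and the part of other cells in the receptor results was not tested.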

How the data were processed

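The submitters' processing notes name bcl2fastq 2.20 and Trimmomatic 0.36 for the reads, STAR 2.5.2b, DESeq2, and the builds rn6 and Rnor_6.0. How reads were assigned to genes, with which annotation and whether by strand, is not stated there. The values deposited by the authors are a signal, reads per gene scaled between libraries and rounded, although the labels call them raw. Scaling up leaves gaps between whole numbers: 85 of 85 were empty in Phf8oe replicate 2 and 5 of 5 in ctrl replicate 2. Scaling down instead doubles up some whole numbers, as fitted in the other 2 libraries. The best-fitting pattern of gaps or doubled values put the reads at 47800000, 39300000, 43100000 and 28400000 for the ctrl pair and then the Phf8oe pair, against deposited totals of 40336248, 39945215, 41149255 and 40260658. The 4 sample files matched the series table.

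Genes reaching 10 in 2 or more libraries entered the test, limma 3.58.1 (R 4.3.3) on log2(value + 1), group as the only term, with a variance trend and robust moderation; fold changes of low genes are understated. P-values were two-sided and adjusted by the Benjamini-Hochberg method over all genes. On 5 simulated sets of 14337 to 14354 tested genes, 200 were changed in each. The test of Phf8oe against ctrl found 83.8% of the genes changed 2-fold and 99.4% of those changed 4-fold, with 6.21% of calls false. The simulation gave both groups the same scatter. In the data the log2 difference between replicates had an SD of 0.32 over genes in ctrl and 0.41 in Phf8oe. The simulated shares therefore cannot be carried over to the calls made here.

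The receptors and gene lists were chosen with earlier results of these data known. Named were the receptors, Phf8, the 3 nearest profiles of each receptor, and neighbouring or overlapping genes. From each list up to 4 called genes ranked by p were also named, or in lists with none the 2 of highest mean. The search for nearest profiles passed over every symbol that begins with LOC, RGD, MGC, AABR or Rn. Established genes whose symbols begin with Rn were therefore left out of it as well. Gene order and promoters came from RefSeq (GRCr8), on which 12088 tested genes were placed. Alternatives covered scaling, pseudocount, filter, moderation, limma-voom, the replicate number as a block and each library left out. A further gene list is not reported here.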

Additional observations from a re-analysis of the deposited data

How the results depend on the processing

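The direction of Gpr37, Adgrg1, Adgrb3, Adgrg6, Gpr37l1 and Gpr17 was the same under every alternative run, and that of Lpar1 under all but 1 (0.06 without ctrl replicate 1). With 1 library left out the log2 fold change ranged from 0.96 to 1.28 for Gpr37, -0.8 to -0.57 for Adgrg1, -0.69 to -0.41 for Adgrb3, -0.64 to -0.36 for Adgrg6, -0.26 to -0.16 for Gpr37l1, 0.07 to 0.7 for Gpr17 and -0.24 to 0.06 for Lpar1, and 1.17 to 1.5 for the ratio of Gpr37 to Gpr37l1. The number of genes called, 1098, ranged from 20 without ctrl replicate 1 and 190 without ctrl replicate 2 to 1848 without Phf8oe replicate 1 and 2145 without Phf8oe replicate 2; a group left with 1 library is assumed to vary like the other.

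With no variance trend 0 genes were called in limma (3133 at an unadjusted p under 0.05), and Gpr37 (1.12), Adgrg1 (-0.69), Adgrg6 (-0.5) and Adgrb3 (-0.55) lost the call with adjusted p between 0.1 and 0.177. Without robust moderation Adgrg6 (-0.5) lost it. Replicates with the same number did not vary together (correlation of their deviations -0.13). With the replicate block 373 genes were called, Adgrg6 (-0.5, adjusted p = 0.0814) and Adgrb3 (-0.55, adjusted p = 0.0709) lost the call, and Gpr37 and Adgrg1 kept it; with crossed numbers as the block, added after the data were seen, 2354 were called and Gpr17 (0.38) passed at 0.0369. Upper quartile scaling turned the split of calls from 430 higher and 668 lower to 609 and 589 and moved the median of all genes by 0.05. The cause of these shifts was not tested.

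Some named genes that did not pass the test turned sign: Vta1 gave 0.04 with upper quartile scaling and -0.06 to 0.05 with 1 library left out. Leaving out 1 library gave -0.2 to 0.05 for Ddx39a, -0.23 to 0.03 for Erf, -0.74 to 0.01 for P2ry12, -0.24 to 0.03 for Wdr6, -0.02 to 0.08 for Arl8a, -1.6 to 0.24 for Musk and -0.1 to 0.01 for Rnpep.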
